A study of Mus musculus with 6 samples.

Results

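A set of 39 germline, meiosis and piRNA pathway genes, of a kind that is held silent by DNA methylation in most somatic cells, was followed through RNA-seq of the mouse B cell line A20. They were found among 27179 gene identifiers by matching each Entrez identifier to a list of symbols, and all 39 had an entry. The experiment compared 3 groups and asked whether recruiting a demethylating activator to 1 promoter changes the expression of other genes. A20 is a B cell lymphoma line from the BALB/C strain. Wild-type A20 cells (labelled as having no activation) were left untransduced, control sgRNA cells carried lentiviral TETact-v3 with a guide that has no target, and Cd4 sgRNA cells carried the same system with a guide to the Cd4 promoter. In TETact-v3 a catalytically inactive Cas9 fused to SunTag epitopes recruits the catalytic domain of the demethylase TET1, and MS2 aptamers in the guide recruit the p65-HSF1 activator. Each group had 2 independently prepared replicates. The transduced groups differ from wild type in the lentivirus, in the expressed activators and in enrichment of transduced cells by FACS, so that these cannot be told apart, and all cells come from 1 established line. DNA methylation was not analysed here, so whether these promoters were methylated was not checked.

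Germ cells are set apart from somatic cells early in development, and many of the genes they need later are silenced elsewhere by methylation of CpG-rich promoters. DNMT1, DNMT3A and DNMT3B place and keep this methylation, and a Polycomb complex with MGA, MAX and E2F6 holds many of the same genes down. The piRNA pathway (PIWI proteins with the Tudor domain and helicase proteins around them) silences transposons in germ cells, while the synaptonemal complex, meiotic cohesins and recombination proteins pair and exchange chromosomes in meiosis.

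The libraries held between 23194920 and 121623410 counts, and the control sgRNA libraries were the deepest. A count of 3 per library was taken as the detection floor, which equals 0.0270 to 0.140 CPM, the counts scaled by TMM to a common library size. Cd4 was counted 37 and 17 times in wild-type, 127 and 124 times in control sgRNA and 30959 and 40422 times in Cd4 sgRNA libraries, which matches the labels. All 10 B cell markers were expressed, with summed levels from 4226 to 7747 CPM per library. The protamines and transition proteins that define spermatids were near 0, with at most 6 counts of any of them in a library. They belong to a list of 15 spermatid genes, of which 9 had at most 3 counts in every library. Others on it were expressed in wild type, among them Tssk6 at 166 and 77 counts and Zpbp at 119 and 41 counts. The share of mitochondrial counts was 2.65% and 2.69% in wild-type libraries and between 5.96% and 11.5% in transduced ones. Its part in the results was not tested.

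The promoters of 34 of the 39 genes were found in RefSeq (GRCm38.p6, which is mm10), with 41 start sites. In the 300 bases from 250 before to 50 after the start they held a median of 18 CpG dinucleotides, against a median of 7 in 32851 mouse promoters. The following stretches lie just before the annotated gene and are shown for the genes that left the floor in both replicates of a transduced group at matched depth (Tex101, Tex14, Dpep3, Syce1) and for Mael and Asz1, piRNA pathway genes with 0 counts in all 6 libraries. Each is written 5′ to 3′ on the gene's strand with every CpG in capitals.
Tex101 (chr7:24672051-24672300, minus strand): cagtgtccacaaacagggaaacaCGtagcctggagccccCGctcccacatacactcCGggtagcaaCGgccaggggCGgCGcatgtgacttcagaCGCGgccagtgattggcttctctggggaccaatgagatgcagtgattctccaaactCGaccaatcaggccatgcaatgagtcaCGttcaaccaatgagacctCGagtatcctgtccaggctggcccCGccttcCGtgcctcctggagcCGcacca
Tex14 (chr11:87404815-87405012, plus strand): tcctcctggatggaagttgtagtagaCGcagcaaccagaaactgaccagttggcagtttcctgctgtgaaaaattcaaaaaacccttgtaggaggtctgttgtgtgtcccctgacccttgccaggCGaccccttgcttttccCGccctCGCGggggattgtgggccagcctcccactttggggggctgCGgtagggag
Dpep3 (chr8:105979420-105979669, minus strand): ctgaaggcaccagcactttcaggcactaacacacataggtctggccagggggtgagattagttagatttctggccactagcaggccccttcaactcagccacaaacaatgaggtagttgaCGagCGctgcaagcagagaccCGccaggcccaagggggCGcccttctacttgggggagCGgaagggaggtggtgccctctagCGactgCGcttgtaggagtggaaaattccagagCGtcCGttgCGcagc
Syce1 (chr7:140787855-140788104, minus strand): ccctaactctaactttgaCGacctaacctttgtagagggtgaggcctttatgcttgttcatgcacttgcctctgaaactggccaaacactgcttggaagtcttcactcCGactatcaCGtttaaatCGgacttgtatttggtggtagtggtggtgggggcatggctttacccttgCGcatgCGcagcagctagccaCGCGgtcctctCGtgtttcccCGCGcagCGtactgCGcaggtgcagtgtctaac
Mael (chr1:166238745-166238994, minus strand): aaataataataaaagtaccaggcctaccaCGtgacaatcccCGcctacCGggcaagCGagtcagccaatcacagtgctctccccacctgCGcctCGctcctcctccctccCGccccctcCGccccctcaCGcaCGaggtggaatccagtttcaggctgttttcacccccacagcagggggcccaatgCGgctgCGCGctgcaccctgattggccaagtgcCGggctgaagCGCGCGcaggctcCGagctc
Asz1 (chr6:18109062-18109311, minus strand): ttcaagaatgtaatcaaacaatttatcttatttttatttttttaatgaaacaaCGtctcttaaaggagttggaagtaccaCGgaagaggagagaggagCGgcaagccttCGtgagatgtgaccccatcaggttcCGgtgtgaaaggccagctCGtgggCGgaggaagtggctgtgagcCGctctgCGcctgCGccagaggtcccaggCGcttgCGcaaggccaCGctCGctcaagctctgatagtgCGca

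Both kinds of gene had CpG in these stretches. The Tex101 stretch held 14, the Tex14 stretch 6 in 198 bases, the Dpep3 stretch 10 and the Syce1 stretch 13, while the stretches of the silent genes Mael and Asz1 held 18 and 15. The Tex14 stretch overlaps the span of the recombination gene Rad51c, which ends at 87404954. Rad51c was expressed in wild type, at 11.5 and 12.5 CPM, so that this stretch is not particular to Tex14.

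Among the 39 genes, 20 stayed silent, with at most 3 counts in each of the 6 libraries, and 10 of these had 0 counts throughout. The genes at 0 were Mael, Tdrd5, Tdrd6, Tex15, Piwil1 and Asz1 of the piRNA pathway, Sycp2 of the chromosome axis, Dmc1, the meiotic recombinase, Stra8, which drives entry into meiosis, and Rpl10l, a testis copy of a ribosomal protein gene. At the depth of the shallowest library a gene with no count could still lie at up to 0.140 CPM, and at that of the deepest at up to 0.0270 CPM. The other silent genes had 1 to 3 counts in at least 1 library. They were Tdrd1, Mov10l1 and Gtsf1 of the piRNA pathway, Hormad1 of the axis, the meiotic cohesin subunits Stag3 and Smc1b, Spo11, which makes meiotic double-strand breaks, the testis TFIID subunit Taf7l, the Tudor domain gene Stk31, and Slc25a31, a testis ADP/ATP carrier. The rule that a gene is silent depends on the floor, since 10 genes were silent in all libraries at a floor of 0. How many of all gene identifiers lay at the floor, in all libraries or in each group, was not counted.

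In wild-type A20 cells 29 of the 39 genes lay at the floor in both libraries. The numbers of genes at the floor were 20 in control sgRNA cells and 22 in Cd4 sgRNA cells. Control sgRNA libraries were deeper, and at 23194920 counts per library 24 genes were silent in all 6. The heat map of counts shows this as a block of empty or nearly empty cells across all groups, below a short upper part of expressed genes.

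**Figure D1:**
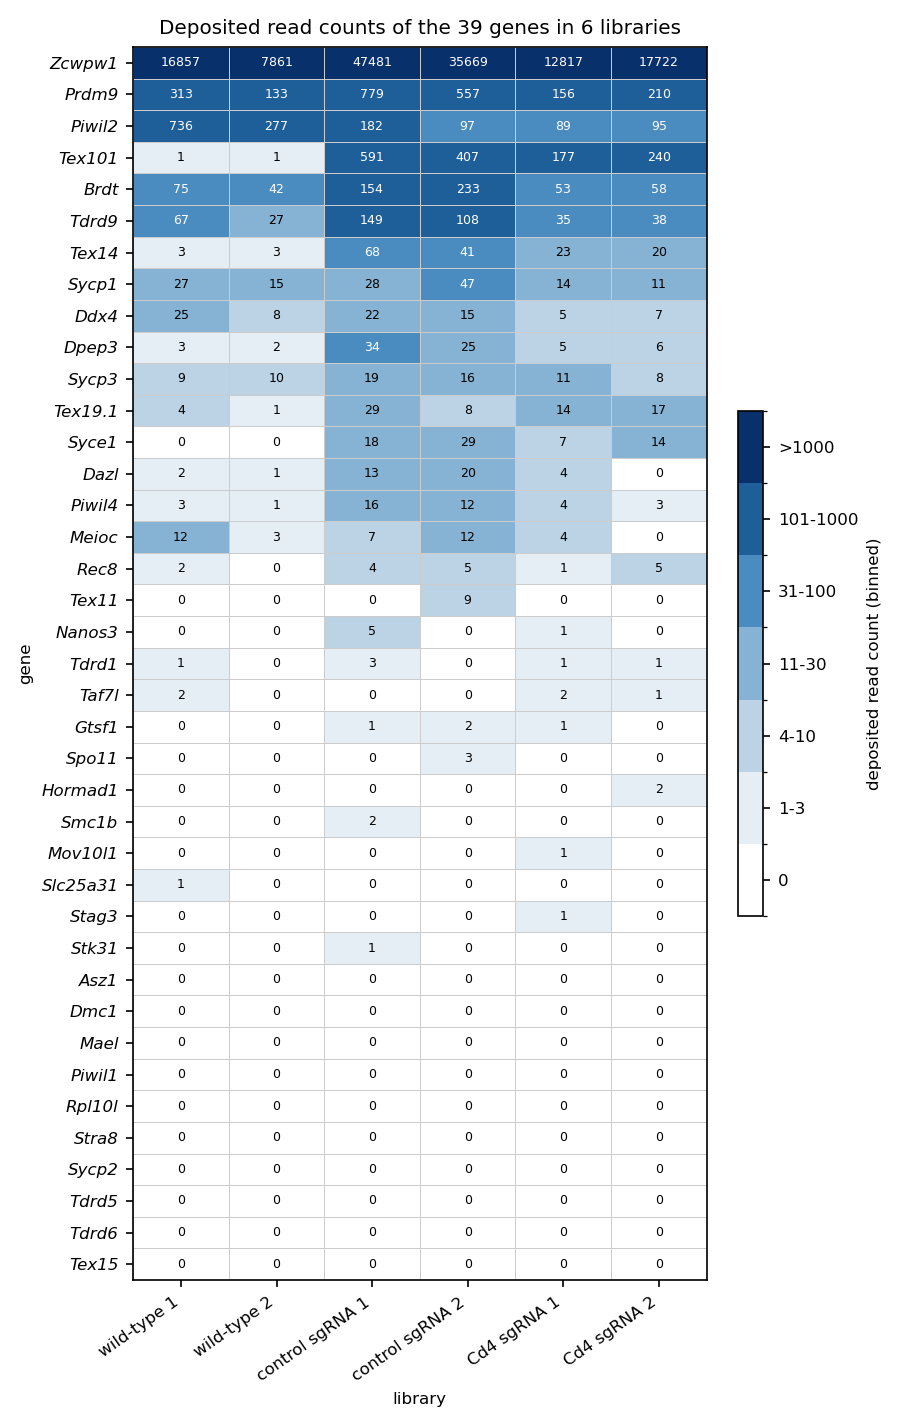
Deposited read counts of the 39 genes (vertical axis, sorted by count) in the 6 libraries (horizontal axis), with the colour giving a range of counts. The lowest 20 genes have at most 3 counts in any library, while Tex101 goes from 1 count in each wild-type library to between 177 and 591 in the transduced ones.

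Of the 29 genes at the floor in wild type, 9 rose above 3 counts in at least 1 transduced library (before any test). The same share was not worked out over all gene identifiers, so this count is not read as particular to the set. Only 4 of them did so in both libraries of a group once all libraries were thinned to equal depth, and these were Tex101, Tex14, Dpep3 and Syce1. A gene was called gained where it lay at the floor in both wild-type libraries and passed the test. Low-count filtering left 13 of the 39 genes for edgeR's quasi-likelihood test, and a gene that passed the filter only through the group where it is high had to differ. This holds for all 3 gained genes, Tex101, Tex14 and Dpep3, whose fold changes and p-values are therefore given as a description. The same limit covers Syce1 and Tex19.1, which passed the filter through transduced libraries, and Ddx4, which passed it through wild type.

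Between control sgRNA and wild-type cells, 3 of the 13 tested genes were higher (Tex101, Tex14 and Dpep3) and 2 were lower (Piwil2 and Ddx4) at an adjusted p under 0.05. Across all 12430 genes tested, 28.0% were called in this comparison, 14.5% higher and 13.5% lower. Between Cd4 sgRNA and wild-type cells, Tex101 and Tex14 were higher and Piwil2 was lower, against 20.5% of all genes called, 9.84% higher and 10.7% lower. The 3 gained genes are among 4 testis genes that belong to none of the other groups of the set. Those groups are RNA-binding, piRNA pathway, synaptonemal complex and axis, cohesin, recombination, meiotic entry and transcription. Because the 3 passed the filter only through transduced libraries, no pattern is read from their being the tested ones of their group. The median log2 fold change of the 13 genes was 0.25 in control sgRNA and -0.19 in Cd4 sgRNA cells, and over all genes tested it was -0.00095 and 0.0043. These medians are the same with Syce1, which has no count in wild type, at its lower bound in place of its fitted value. The number of genes called depended on single libraries. In control sgRNA cells 1 gene (Tex101) was higher without wild-type replicate 1 or 2, while 7 and 6 were higher without control sgRNA replicate 1 and 2, and 1 (Piwil2) was lower without either wild-type or either Cd4 sgRNA library. In Cd4 sgRNA cells 1 gene (Tex101) was higher without either wild-type or either Cd4 sgRNA library and 5 without either control sgRNA library, while 0 were lower without wild-type replicate 1 or Cd4 sgRNA replicate 2 and 3 without either control sgRNA library. Both comparisons share the wild-type libraries, so that they are not independent of each other. An exact permutation test of 2 libraries against 2 reaches no p under 0.333, so each call depends on the spread that the model estimates.

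**Figure D2:**
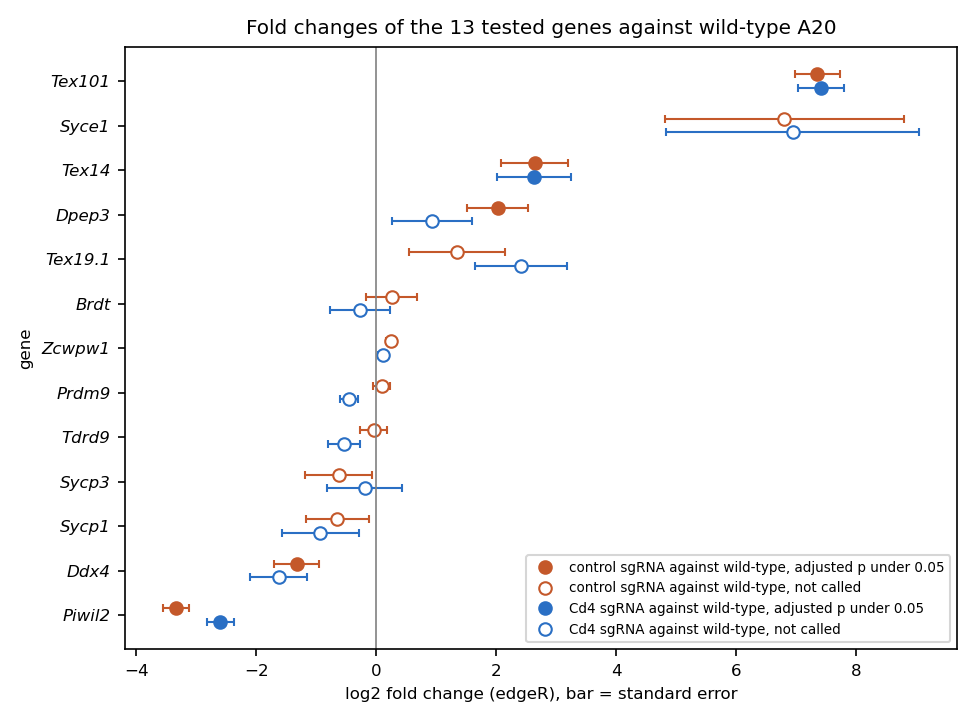
Log2 fold changes (horizontal axis) of the 13 tested genes (vertical axis) in control sgRNA (orange) and Cd4 sgRNA cells (blue) against wild-type A20, with the standard error as bars. Filled points have an adjusted p under 0.05 in edgeR's quasi-likelihood test. Tex101 lies near 7.4 and Piwil2 near -3 in both, and the position of Syce1, with 0 counts in wild type, depends on the prior count of the fit.

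The largest gain belonged to Tex101, which encodes a GPI-anchored protein of male germ cells that is needed for sperm to migrate in the oviduct. Tex101 (Entrez gene 56746, chromosome 7 from 24668012 to 24672050) had 1 count in each wild-type library. It had 591 and 407 counts in control sgRNA and 177 and 240 counts in Cd4 sgRNA libraries. In CPM these were 0.0215 and 0.0467, 5.32 and 5.03, and 5.40 and 5.42. All 4 transduced libraries were thus far above the wild-type ones, and they lay close to each other. The log2 fold change was 7.35 (standard error, SE, 0.37, edgeR adjusted p = 0.00012) in control sgRNA and 7.42 (SE 0.38, adjusted p = 0.00013) in Cd4 sgRNA cells. Because wild type rests on 2 counts, the ratio of pooled counts per depth, 176 in control sgRNA cells, has a 95% exact counting interval from 48.7 to 1459. The corresponding ratio in Cd4 sgRNA cells was 184, with an interval from 50.5 to 1522. At equal depth Tex101 had 0 and 1 counts in wild-type, 117 and 88 in control sgRNA and 118 and 112 in Cd4 sgRNA libraries. Tex101 passed the threshold in each alternative run for both comparisons. Between Cd4 sgRNA and control sgRNA cells its log2 difference was 0.06 (SE 0.14, edgeR adjusted p = 0.78).

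Tex14, needed for the intercellular bridges that connect male germ cells, also left the floor in both transduced groups. Tex14 (Entrez gene 83560, chromosome 11 from 87405013 to 87555823) had 3 counts in each wild-type library, 68 and 41 in control sgRNA and 23 and 20 in Cd4 sgRNA libraries. In the same order its levels were 0.0646 and 0.140 CPM, 0.612 and 0.507 CPM, and 0.702 and 0.452 CPM. The groups did not overlap with wild type but overlapped with each other. The log2 fold change was 2.64 (SE 0.56, edgeR adjusted p = 0.016) in control sgRNA and 2.63 (SE 0.62, adjusted p = 0.029) in Cd4 sgRNA cells. Ratios of pooled counts were 6.42 (95% counting interval 2.86 to 17.9) and 6.32 (2.68 to 18.2). These calls were lost in edgeR without either wild-type library, with an adjusted p of 0.27 without replicate 1 and 0.10 without replicate 2 for control sgRNA cells, and 0.32 and 0.14 for Cd4 sgRNA cells. The second call was also lost without Cd4 sgRNA replicate 1 or 2, at an adjusted p of 0.16 or 0.12 from edgeR. Within the span of Tex14 lie 5 genes of small nuclear and nucleolar RNAs (Rnu1a1 and 4 Rnu3b genes) that share no exon base with it, and each had at most 4 counts in wild-type, 41 in control sgRNA and 6 in Cd4 sgRNA libraries, whose part in the result was not tested. Counting intervals cover counting error only, since reads without molecular identifiers are not independent molecules.

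Dpep3, a membrane-bound dipeptidase of the testis, passed the test in control sgRNA cells and not in Cd4 sgRNA cells. Dpep3 (Entrez gene 71854, chromosome 8 from 105973520 to 105979419) had 3 and 2 counts in wild-type, 34 and 25 in control sgRNA and 5 and 6 in Cd4 sgRNA libraries. This equals 0.0646 and 0.0934 CPM, 0.306 and 0.309 CPM, and 0.153 and 0.136 CPM. Levels in Cd4 sgRNA cells lay between those of the other groups without overlap. The log2 fold change was 2.03 (SE 0.50, edgeR adjusted p = 0.025) in control sgRNA and 0.93 (SE 0.67, adjusted p = 0.35) in Cd4 sgRNA cells. The difference between Cd4 sgRNA and control sgRNA cells was itself not called, at -1.09 on the log2 scale (SE 0.40, edgeR adjusted p = 0.17). The gain in control sgRNA cells was lost with DESeq2 (adjusted p = 0.15), with edgeR on these 2 groups alone (adjusted p = 0.069), and in edgeR without wild-type replicate 1 or 2 (0.36 and 0.16) or Cd4 sgRNA replicate 1 or 2 (0.077 and 0.076). At equal depth Dpep3 had at most 7 counts in any library, so that its change lies close to what this depth can show, and 119 of its 1698 exon bases are shared with Gm45752 on the opposite strand.

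Syce1, a central element protein of the synaptonemal complex, had no count in wild type and was singled out after its values were seen. Syce1 (Entrez gene 74075, chromosome 7 from 140777229 to 140787854) had 18 and 29 counts in control sgRNA and 7 and 14 in Cd4 sgRNA libraries. Against the floor of 3 counts per wild-type library it was at least 2.54-fold higher in control sgRNA and at least 2.59-fold higher in Cd4 sgRNA cells. All 4 transduced libraries were above both wild-type libraries. Neither difference passed edgeR's quasi-likelihood test, with adjusted p of 0.059 and 0.076. It passed for control sgRNA cells in 6 of 15 alternatives and for Cd4 sgRNA cells in 5 of 14, voomLmFit and DESeq2 included in both. Over these alternatives the adjusted p ranged from 0.00018 to 0.31 and from 0.00085 to 0.34.

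**Figure D3:**
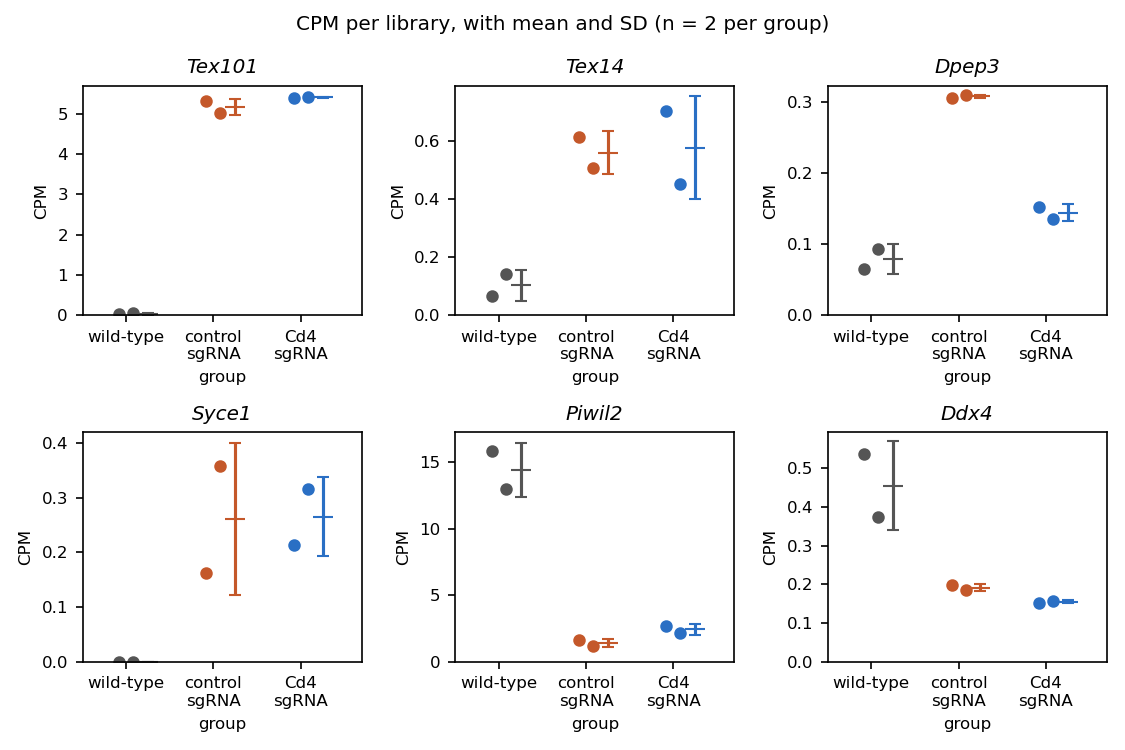
Level in CPM (vertical axes, each from 0) of 6 genes in wild-type A20, control sgRNA and Cd4 sgRNA cells (horizontal axis), with each library as a point and the mean and SD (n = 2) beside it. Tex101, Tex14 and Syce1 sit above wild type in both transduced groups, Dpep3 is highest with control sgRNA, and Piwil2 and Ddx4 are highest in wild type.

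The other 5 genes that rose above the floor were too low to be tested. Dazl, an RNA-binding protein of germ cells, had 2 and 1 counts in wild-type, 13 and 20 in control sgRNA and 4 and 0 in Cd4 sgRNA libraries, and at equal depth at most 5 in any library. Piwil4, a PIWI protein that directs methylation of transposons, had 3 and 1, 16 and 12, and 4 and 3 counts. The meiotic cohesin subunit Rec8 reached 5 counts, Tex11, an X-linked gene needed for crossing over, 9 counts in 1 control sgRNA library, and Nanos3, needed for germ cell survival, 5 counts. None of these is called gained.

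The genes that were expressed in wild type behaved differently from one to the next. There were 10 of the 39 with more than 3 counts in at least 1 wild-type library, which placed them above the floor before transduction. This split rests on raw counts. Tex19.1, counted here, had a mean of 0.0664 CPM in wild type, below Tex14 at 0.102 CPM, which lay at the floor. By far the highest was Zcwpw1, a reader of the histone marks that PRDM9 places at recombination sites. Per kilobase of exon, its mean level was 164.5 CPM in wild-type, 195.7 in control sgRNA and 178.4 in Cd4 sgRNA cells. Next in order per kilobase in wild type came Piwil2 at 2.93 and Prdm9 at 1.87, and no other tested gene exceeded 0.356 there. In control sgRNA cells Tex101, at 4.91 CPM per kilobase, was second to Zcwpw1. Zcwpw1 and Pilra, on the opposite strand, share 468 of 5697 exon bases, and whether counting used strand is not given in the sources used here.

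Piwil2 fell in both transduced groups. It encodes a PIWI protein of spermatogonia that binds piRNAs, and lies on chromosome 14 from 70372477 to 70436898 (Entrez gene 57746). Its counts were 736 and 277 in wild-type, 182 and 97 in control sgRNA and 89 and 95 in Cd4 sgRNA libraries, or 15.8 and 12.9 CPM, 1.64 and 1.20 CPM, and 2.72 and 2.15 CPM. No transduced library reached 3 CPM, and the groups did not overlap. Piwil2 was 10.1-fold lower in control sgRNA (log2 fold change -3.34, SE 0.22, edgeR adjusted p = 0.00087) and 6.04-fold lower in Cd4 sgRNA cells (-2.60, SE 0.23, adjusted p = 0.0024). In these bulk libraries, fewer cells that express a gene and less RNA per cell cannot be told apart. The call in control sgRNA cells held in all 17 alternatives, and that in Cd4 sgRNA cells in 15 of 17. It was lost in edgeR without wild-type replicate 1 (adjusted p = 0.055) and without Cd4 sgRNA replicate 2 (adjusted p = 0.051). Between Cd4 sgRNA and control sgRNA cells Piwil2 differed by 0.74 on the log2 scale (SE 0.26, edgeR adjusted p = 0.17).

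Ddx4, the germ cell helicase also called Vasa, was lower in control sgRNA cells near the threshold. It passed the low-count filter only through wild type, where it is high, so its fold changes and p-values are a description too. Ddx4 (Entrez gene 13206, chromosome 13 from 112598333 to 112652633) had 25 and 8 counts in wild-type, 22 and 15 in control sgRNA and 5 and 7 in Cd4 sgRNA libraries. This equals 0.538 and 0.374 CPM, 0.198 and 0.185 CPM, and 0.153 and 0.158 CPM. The wild-type levels were above all others. The log2 fold change was -1.32 (SE 0.38, edgeR adjusted p = 0.045) in control sgRNA and -1.62 (SE 0.47, adjusted p = 0.058) in Cd4 sgRNA cells. The call was lost in 10 of 15 alternatives, among them voomLmFit (adjusted p = 0.052), DESeq2 (0.22), and edgeR without low-count filtering (0.061), on these 2 groups alone (0.10), or with 1 wild-type or Cd4 sgRNA library left out (0.11 to 0.48).

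The piRNA pathway as a group thus held 9 silent genes of 13. Of its 3 tested genes Piwil2 fell, and Tdrd9 and Tex19.1 were not called in either comparison. Tdrd9, a helicase with a Tudor domain, had 67 and 27 counts in wild-type, 149 and 108 in control sgRNA and 35 and 38 in Cd4 sgRNA libraries. Its log2 fold changes were -0.04 (edgeR adjusted p = 0.91) and -0.54 (adjusted p = 0.21). Tex19.1, which restrains transposons in germ cells and placenta, had 4 and 1, 29 and 8, and 14 and 17 counts. Its log2 fold change of 2.42 in Cd4 sgRNA cells missed the threshold (SE 0.77, edgeR adjusted p = 0.065) and passed it in 4 of 15 alternatives, with adjusted p from 0.0034 to 0.36.

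In the synaptonemal complex and chromosome axis, 2 of 5 genes were silent and none of the 3 tested was called. Sycp1, the transverse filament, had 27 and 15 counts in wild-type, 28 and 47 in control sgRNA and 14 and 11 in Cd4 sgRNA libraries, with log2 fold changes of -0.65 (edgeR adjusted p = 0.38) and -0.93 (adjusted p = 0.34). Sycp3, of the lateral element, had between 8 and 19 counts in every library, and its levels overlapped between all groups. Its exons share 660 of 1264 bases with Chpt1 on the opposite strand, so that part of these counts may belong to that gene. At an unadjusted p under 0.05 the axis group had Syce1 alone, in both comparisons, and no other member.

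Among the recombination genes, Prdm9, the histone methyltransferase that places meiotic double-strand breaks, had 313 and 133 counts in wild-type, 779 and 557 in control sgRNA and 156 and 210 in Cd4 sgRNA libraries. In CPM it was at 6.74 and 6.21, 7.01 and 6.89, and 4.76 and 4.74, lowest in the Cd4 sgRNA cells without overlap. The log2 difference from wild type was 0.09 (SE 0.14, edgeR adjusted p = 0.64) in control sgRNA and -0.46 (SE 0.15, adjusted p = 0.078) in Cd4 sgRNA cells. Zcwpw1 had 16857 and 7861, 47481 and 35669, and 12817 and 17722 counts. Its log2 fold change was 0.25 in control sgRNA cells (SE 0.08, edgeR adjusted p = 0.060), with 5 of 17 alternatives past the threshold, and 0.12 in Cd4 sgRNA cells (adjusted p = 0.33).

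Brdt, a testis bromodomain protein that reads acetylated histones, had 75 and 42 counts in wild-type, 154 and 233 in control sgRNA and 53 and 58 in Cd4 sgRNA libraries. Its levels overlapped, from 1.61 and 1.96 CPM through 1.39 and 2.88 CPM to 1.62 and 1.31 CPM, and it was not called (log2 fold changes 0.26 and -0.26, edgeR adjusted p = 0.68 and 0.73). Meioc, which keeps cells in the meiotic programme, had 12 and 3, 7 and 12, and 4 and 0 counts and was too low to be tested.

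Between Cd4 sgRNA and control sgRNA cells, which differ in the guide, none of the 13 tested genes was called by edgeR, against 0.0724% of all genes, 0.0241% higher and 0.0483% lower. At an unadjusted p under 0.05, 1 was higher (Piwil2) and 2 were lower (Dpep3 and Prdm9). DESeq2 called 1 higher, Piwil2, and 1 lower, Prdm9, while voomLmFit called 0. The log2 differences ranged from -1.09 for Dpep3 to 1.06 for Tex19.1, with a median of -0.13, against -0.0081 over all genes tested. For Prdm9 the difference was -0.55 (SE 0.14, edgeR adjusted p = 0.13). Without control sgRNA replicate 1, edgeR called 2 genes higher (Tex19.1 and Piwil2) and 4 lower (Prdm9, Dazl, Brdt and Zcwpw1), and without control sgRNA replicate 2 it called Piwil2 higher and Prdm9 lower.

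A sequence word that MGA and MAX are known to bind was frequent in these promoters. The letters CACGTG, which read the same on both strands, occurred in 17 of the 41 promoters, those of 14 genes, or 41.5%, against 7.2% of all mouse promoters of the same length. They were found in 57.1% of the 21 promoters of silent genes and in 5 of the 20 promoters of genes above the floor. None of the promoters of Tex101, Tex14, Dpep3 and Syce1 held them, and of the silent genes shown Mael held them and Asz1 did not. The letters TCCCGC, a word bound by E2F6, whose own gene was listed at 0 counts, were found on either strand in 18 promoters of 16 genes, against 6562 of 32851 promoters in all. TCCCGC was in 42.9% of the promoters of silent genes and in 45.0% of those of genes above the floor. Of the 6 genes shown, Tex14 and Mael held TCCCGC. The median number of CpG was 20 in promoters of silent genes and 17.5 in those of genes above the floor, as in the plot of CpG content. Both words contain a CpG, and the promoters of the set held a median of 18 CpG against 7 in all promoters. The shares over all promoters were not matched for CpG content, so that its part in these differences was not tested. Promoters of 1 gene share sequence, and these counts are a description without a test.

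**Figure D4:**
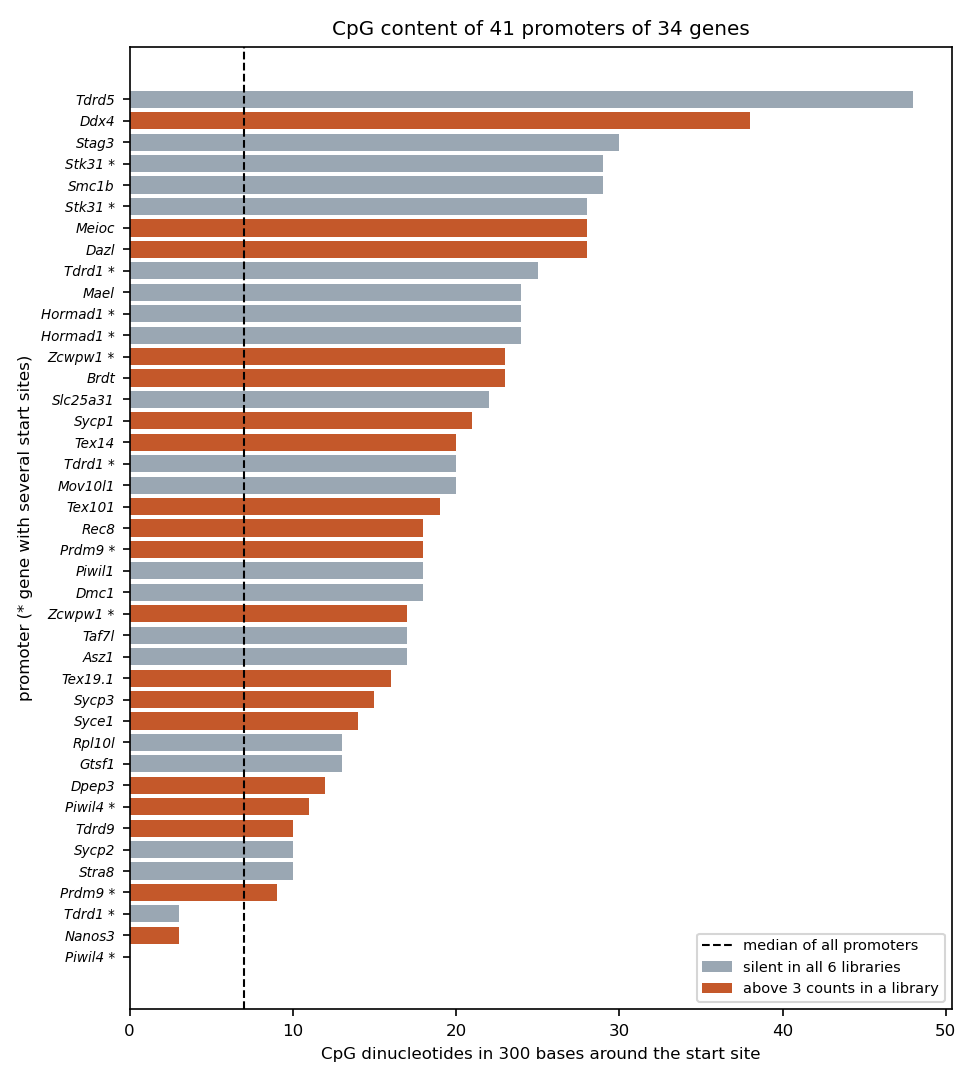
Number of CpG dinucleotides (horizontal axis) in the 300 bases around each of 41 start sites of 34 genes (vertical axis), for genes silent in all 6 libraries (grey) and genes with more than 3 counts in a library (orange). The dashed line is the median of all promoters, 7, and most bars of both colours pass it.

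Genes that repress the germline programme were mostly expressed, and some were higher in transduced cells. Of 25 such genes, 24 were tested, and E2f6 was listed at 0 counts in all 6 libraries. Whether E2f6 was absent or was missed in the counting was not tested. In control sgRNA cells 6 were higher and 0 lower by edgeR's test (at an unadjusted p under 0.05, 11 and 0), beside 14.5% of all genes tested that were higher and 13.5% that were lower, and in Cd4 sgRNA cells 3 were higher and 0 lower (unadjusted, 10 and 1), beside 9.84% and 10.7%. Dnmt3a, a de novo DNA methyltransferase, had a log2 fold change of 1.01 (SE 0.09, edgeR adjusted p = 0.0018) in control sgRNA and 1.11 (SE 0.09, adjusted p = 0.0019) in Cd4 sgRNA cells. Dnmt1, the maintenance methyltransferase, rose by 0.49 on the log2 scale in control sgRNA cells (SE 0.10, edgeR adjusted p = 0.020). Rnf2, the Polycomb ubiquitin ligase, was higher in both groups, by 0.43 and 0.47 on the log2 scale (edgeR adjusted p = 0.013 and 0.014). Rybp, Ehmt2 and Kdm5c were the other genes called in control sgRNA cells, and Hells, a chromatin remodeller needed for DNA methylation, the other in Cd4 sgRNA cells. The median log2 fold change of the 24 genes was 0.31 and 0.25.

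Some B cell markers fell in the transduced cells. Cd79a and Cd79b were lower in both groups, Ptprc was lower in control sgRNA cells, and none of the markers was higher in either group (at an unadjusted p under 0.05, 0 higher). Ms4a1, Pax5, Ebf1, Cd22 and Blk were not called in either comparison. Of all genes tested, 13.5% were lower in control sgRNA and 10.7% in Cd4 sgRNA cells. Cd79a, part of the B cell receptor, had log2 fold changes of -0.94 (edgeR adjusted p = 0.0079) and -1.01 (adjusted p = 0.0092). The summed level of the 10 markers was 7684 and 7747 CPM in wild-type, 4982 and 7715 CPM in control sgRNA and 4788 and 4226 CPM in Cd4 sgRNA libraries. Most of this sum was Cd74, at 5468 and 5526, 3505 and 6032, and 3281 and 2792 CPM. Cd74 was not called in either comparison (edgeR adjusted p = 0.56 and 0.057). The T cell and fibroblast markers were too low to be tested, at most at 0.248 and 0.507 CPM summed in any library. Their part in the germline results was not tested.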

How the data were processed

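RNA-seq of poly(A) RNA was measured in 6 libraries, 2 per group, with groups and replicate numbers taken from the sample labels. The deposited values are raw read counts per Entrez gene. To make them, the authors used Rsubread for alignment of read pairs to mm10 and featureCounts with the RefSeq annotation built into it. How reads on the other strand or shared between genes were treated is not given in the sources used here. A table of the whole series that repeats these counts was not used.

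Symbols were matched for 25275 identifiers (RefSeq, GRCm38.p6) and 1904 had none. As in the study, genes with no symbol, those of mitochondria or ribosomal RNA and those typed as other were removed, which left 25227, and filterByExpr left 12430 for testing (86.0% to 95.0% of each library's counts). Counts were scaled by TMM. The test was edgeR 4.0.16 (glmQLFit, robust, and glmQLFTest, two-sided) in R 4.3.3, with 1 term per group over all 6 libraries and Benjamini-Hochberg adjustment over all genes tested. A standard error is the log2 fold change over the root of its F statistic. The study's voomLmFit (limma 3.58.1) and DESeq2 1.42.0 were alternatives, beside RLE factors, library size only, other filters, only 2 groups, a replicate block, thinning to 23194920 counts and each replicate left out. Replicates differed by more than counting noise, so each was kept. The chi-square per degree of freedom was 18.6 in wild-type, 372.5 in control sgRNA (the deepest) and 12.2 in Cd4 sgRNA libraries. How far depth accounts for the value in control sgRNA libraries was not tested. Control sgRNA replicates 1 and 2 also differed in their share of mitochondrial counts, at 6.63% and 11.5%.

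The members and all lists were chosen with earlier results of these data known. Every library's value is given for genes called in any comparison or with more than 30 counts in a library (10 genes). Syce1, Tex19.1, Sycp3, Dazl, Piwil4, Rec8, Tex11, Nanos3 and Meioc fall outside this rule and were named after their values were seen. In further lists, called genes are named. An item of these lists is not reported here. Exon overlaps came from GENCODE annotation of GRCm38. On simulated counts for control sgRNA against wild type with 12255 genes, edgeR recovered 96.9% of 4-fold and 99.0% of 8-fold changes and called 8 unchanged genes. The changed genes were drawn from genes of all levels, with both transduced groups changed alike and a spread taken from the trend over genes. These shares therefore do not give the recovery for the low genes of this set. Methylation data were not analysed here.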

Additional observations from a re-analysis of the deposited data

How the results depend on the processing

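Tex101 kept its direction and its call in all 17 alternatives for both comparisons with wild type, as did Piwil2 in control sgRNA cells. The count of genes lower in control sgRNA than in wild-type cells among the 39 was 1 (Piwil2) rather than 2 with voomLmFit, DESeq2, no low-count filter, a filter of 30 counts in 2 libraries, only the 2 groups, the replicate block, thinned libraries and edgeR's legacy quasi-likelihood method (chosen after seeing the data). The filter of 30 counts and the thinning left Ddx4 out of the test. The cause of the other changes was not tested. With only the 2 groups compared, edgeR called 835 genes higher and 736 lower in control sgRNA, and 3766 higher and 3685 lower in Cd4 sgRNA cells, with 4 and 3 of the 39 among the latter. In the comparison of Cd4 sgRNA with control sgRNA cells, 3 higher and 6 lower genes became 1 higher with voomLmFit, 538 and 889 with DESeq2 (1 and 1 of the 39), 5 and 13 without a low-count filter, and 1 and 0 with only these groups. At a floor of 0 counts 10 of the 39 were silent in all libraries.

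Leaving out 1 library at a time, which leaves a group with a lone sample assumed to vary like the others, gave 63 to 4228 genes higher and 54 to 3990 lower in control sgRNA against wild-type cells (1 to 7 and 1 to 3 of the 39), 47 to 4152 and 34 to 3677 in Cd4 sgRNA against wild-type cells (1 to 5 and 0 to 3), and 1 to 3887 and 0 to 3952 in Cd4 sgRNA against control sgRNA cells (0 to 2 and 0 to 4). The highest values came without a control sgRNA library.

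The values that changed sign were not called with all libraries, though some ends of their ranges were. For Cd4 sgRNA against control sgRNA, Tex14, at -0.01, became 0.031 with DESeq2, 0.024 with the replicate block, 0.022 with the legacy method and -0.32 to 0.31 with 1 library left out, Syce1, at 0.14, -0.39 to 0.74, Sycp1, at -0.28, -0.83 to 0.36, and Brdt, at -0.52, -0.99 (edgeR adjusted p = 0.00019, without control sgRNA replicate 1) to 0.057. Against wild type in control sgRNA cells, Sycp1 became 0.0075 in thinned libraries, Tdrd9 ranged from -0.085 to 0.11 and Brdt from -0.32 to 0.76 (edgeR adjusted p = 0.0024, without control sgRNA replicate 1) with 1 library left out, and Sycp1 reached -1.29 without control sgRNA replicate 2 (edgeR adjusted p = 0.013).

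The labels do not say whether replicate numbers mark libraries that belong together. The differences between replicates 1 and 2 correlated at -0.03, 0.02 and -0.14 between groups (Pearson, across 12430 genes, which are not independent). These values did not show a pairing, and with 1 difference per group they cannot exclude it. With the replicate block, edgeR called 1550 genes higher and 1420 lower in control sgRNA, 969 and 1068 in Cd4 sgRNA cells, and 2 and 5 between the transduced groups. Crossing the numbers between the transduced groups, chosen after seeing the data, gave 3 and 9 genes and 0 of the 39.

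Depth limits the low genes most. With 3 counts equal to 0.140 CPM in the shallowest library, changes of genes below that level were not detectable there.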

Other observations

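A list of further germline genes, chosen with earlier results of these data known, held 42 genes with an identifier, of which 17 were tested. In control sgRNA cells 3 were higher and 1 lower by edgeR's quasi-likelihood test, beside 28.0% of all genes tested that were called. In Cd4 sgRNA cells 1 was higher and 1 lower, beside 20.5%. Gpat2, a glycerol-phosphate acyltransferase that takes part in piRNA production in spermatocytes, was counted 52 and 27 times in wild-type, 13211 and 7424 times in control sgRNA and 4082 and 5728 times in Cd4 sgRNA libraries. Per kilobase of exon its mean level was 0.453 CPM in wild-type, 40.1 in control sgRNA and 48.3 in Cd4 sgRNA cells, above all of the 39 genes but Zcwpw1 in the transduced groups. Ythdc2, a helicase needed for meiotic entry, and Psmc3ip, a partner of the meiotic recombinase, were higher in control sgRNA cells by 0.59 and 0.38 on the log2 scale (edgeR adjusted p = 0.010 and 0.040). Hfm1, a meiotic helicase, fell by 0.57 there (adjusted p = 0.043), and Msh5, which stabilises crossover intermediates, fell by 1.13 in Cd4 sgRNA cells (adjusted p = 0.020). Of the 42 genes, 19 had at most 3 counts in every library. Of 15 genes of later spermatids, 4 were tested and none was called by edgeR in either comparison with wild type (at an unadjusted p under 0.05, 1 was lower in control sgRNA cells).

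Genes near the gained ones, within 100 kb and looked at after the values were seen, moved in different ways. In control sgRNA cells 2 were higher and 1 lower of 3 tested near Tex14, 2 and 1 of 4 near Tex101, and 1 and 0 of 10 near Dpep3. The numbers in Cd4 sgRNA cells were 1 and 0, 1 and 1, and 2 and 0. Of all genes tested, 28.0% and 20.5% were called in these comparisons. Rad51c, a recombination gene whose span ends 0.059 kb from that of Tex14, had a log2 fold change of 1.12 in control sgRNA (edgeR adjusted p = 0.0044) and 0.51 in Cd4 sgRNA cells (adjusted p = 0.055). Ppm1e, a phosphatase gene 46.0 kb from Tex14, was higher in both, by 2.34 and 2.60 on the log2 scale (edgeR adjusted p = 0.0019 in each), while Mtmr4 at 36.1 kb was lower in control sgRNA cells by -0.59 (adjusted p = 0.0065). Near Tex101, Ethe1, a mitochondrial sulfur dioxygenase gene at 59.1 kb, was higher in both groups, by 1.80 and 1.66 (edgeR adjusted p = 0.00082 and 0.0013). Zfp575 at 80.2 kb was lower, by -1.76 and -2.76 (adjusted p = 0.046 and 0.037). Phldb3 at 38.7 kb was higher in control sgRNA cells, by 0.93 (edgeR adjusted p = 0.024). The nearest neighbour of Tex101, Gm4598 at 4.90 kb, had 0 counts in wild type and at most 4 in any library. Near Dpep3, Slc12a4, a potassium chloride cotransporter gene at 7.37 kb, was higher in both groups, by 0.59 and 0.63 (edgeR adjusted p = 0.016 and 0.019). Psmb10, a subunit gene of the immunoproteasome at 35.1 kb, was higher in Cd4 sgRNA cells, by 0.72 (adjusted p = 0.021).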
